A study of Mus musculus with 4 samples.

Results

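The Notch pathway genes described here were 10 listed genes, namely the receptors Notch1, Notch2, Notch3 and Notch4, the ligands Dll1, Dll4, Jag1 and Jag2, the DNA-binding effector Rbpj and the target gene Hes1. On mm9 the receptors lie at chr2:26313423-26359342 (Notch1, minus strand), chr3:97817461-97954290 (Notch2, plus), chr17:32257765-32303825 (Notch3, minus) and chr17:34701213-34725448 (Notch4, plus). The ligands lie at chr17:15504318-15512940 (Dll1, minus), chr2:119151520-119161698 (Dll4, plus), chr2:136907192-136942380 (Jag1, minus) and chr12:114146801-114167706 (Jag2, minus), Rbpj at chr5:53981454-54048684 (plus) and Hes1 at chr16:30065426-30067882 (plus). They are 10 of the 21418 autosomal protein-coding genes of the GENCODE M1 annotation, and all 10 were found in it. Their methylation was read from 4 whole-genome bisulfite libraries of the colon of C57 mice, offspring of a cross between wild-type mice and mice with a knock-in of EGFP and CreER at Lgr5, in which both are driven by the endogenous Lgr5 sequences. Intestinal stem cells (ISCs) were sorted as Lgr5-EGFP-positive cells and differentiated cells as EpCAM-positive, Lgr5-EGFP-negative cells, each at postnatal day 0 (P0) and at P21, and the labels of these groups name no treatment. Each of the 4 groups was 1 library made from pooled mice, litters at P0, for which no selection on the reporter is stated, and reporter-positive offspring at P21. There is therefore no replicate, and every test below compares 2 libraries and covers counting error only.

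In Notch signalling, a ligand of the Delta or Jagged family on one cell binds a receptor on its neighbour, the receptor is cut by gamma-secretase, and its intracellular part enters the nucleus and joins RBPJ on DNA to switch on genes such as Hes1. In the intestinal crypt this signal is known to keep stem and progenitor cells undifferentiated and to direct their progeny towards the absorptive lineage, since Hes1 represses the secretory factor Atoh1. Dll1 and Dll4 are the ligands known to matter for stem cells there, and Notch1 and Notch2 the receptors.

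Calls were summed over both strands of each CpG and over 200-bp bins from 5 kb upstream of the transcription start site to the gene end. A methylation level is the percentage of calls that were methylated. The 4 libraries held between 1023427645 and 1188114423 calls, and 93.1% to 97.0% of the CpGs of the genome had a call. Of the 4076373 bins tested in all, 1401 belonged to the 10 genes, from 34 at Hes1 to 446 at Notch2, and the promoter, body and last exon could be measured in every one of them. The median member bin had 67 calls in P0 ISCs, 123 in P0 differentiated cells, 75 in P21 ISCs and 99 in P21 differentiated cells, against 55, 81, 58 and 68 over all bins. Promoters of the epithelial genes Epcam, Cdh1, Vil1, Krt8 and Cdx2 were methylated at 0% to 6.22% and those of the blood cell genes Ptprc, Cd3e and Itgam at 67.0% to 89.0%. Krt20, at 51.4% to 55.4%, was the exception among the epithelial genes, and Kdr, at 1.75% to 3.63%, among the endothelial ones, whose other 3 promoters stood at 69.1% to 80.4%. The stem cell genes Lgr5, Ascl2 and Smoc2 were at 1.49% to 6.90% in both populations, so these promoters do not tell ISCs from differentiated cells. The other listed promoters were spread from 3.53% to 51.8% for Col1a1, Col1a2, Acta2 and Des and from 12.2% to 71.3% for the neural and glial genes Elavl4 and S100b.

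The bins shown first are those of largest change in 6 runs of adjacent called bins, because the results turn on these runs. Longer runs were taken first, from the longest run of each gene and comparison. Where the runs of 2 comparisons overlapped only the first was used, and bins in a UTR were left out. They were read from the mm9 genome in the direction of each gene, with every CpG that lies whole in the bin in capitals. The bins were Notch2 intron 33 at chr3:97949601-97949800 (plus strand), Notch1 exon 4 at chr2:26339801-26340000 (minus strand), Notch1 exon 34 at chr2:26315601-26315800 (minus strand), Dll1 upstream at chr17:15516001-15516200 (minus strand), Dll4 upstream at chr2:119149601-119149800 (plus strand), and Dll4 at the end of intron 6 at chr2:119156201-119156400 (plus strand).
Notch2 intron 33: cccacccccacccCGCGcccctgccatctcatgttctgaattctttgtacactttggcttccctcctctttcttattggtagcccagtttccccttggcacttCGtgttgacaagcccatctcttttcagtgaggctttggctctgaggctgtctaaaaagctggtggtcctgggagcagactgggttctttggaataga
Notch1 exon 4: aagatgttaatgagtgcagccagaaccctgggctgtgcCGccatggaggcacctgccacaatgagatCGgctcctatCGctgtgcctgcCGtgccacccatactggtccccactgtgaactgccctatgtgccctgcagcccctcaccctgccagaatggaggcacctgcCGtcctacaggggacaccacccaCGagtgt
Notch1 exon 34: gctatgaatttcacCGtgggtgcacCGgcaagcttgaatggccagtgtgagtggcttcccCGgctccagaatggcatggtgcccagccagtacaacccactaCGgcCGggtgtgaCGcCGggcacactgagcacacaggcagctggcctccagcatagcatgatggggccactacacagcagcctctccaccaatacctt
Dll1 upstream: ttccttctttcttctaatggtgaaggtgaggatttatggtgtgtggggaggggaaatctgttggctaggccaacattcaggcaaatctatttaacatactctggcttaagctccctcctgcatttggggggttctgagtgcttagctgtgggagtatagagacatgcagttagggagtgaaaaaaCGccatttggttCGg
Dll4 upstream: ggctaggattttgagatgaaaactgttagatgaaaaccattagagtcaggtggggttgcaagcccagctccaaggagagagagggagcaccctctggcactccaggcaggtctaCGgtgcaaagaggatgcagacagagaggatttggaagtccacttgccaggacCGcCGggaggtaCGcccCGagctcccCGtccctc
Dll4 intron 6: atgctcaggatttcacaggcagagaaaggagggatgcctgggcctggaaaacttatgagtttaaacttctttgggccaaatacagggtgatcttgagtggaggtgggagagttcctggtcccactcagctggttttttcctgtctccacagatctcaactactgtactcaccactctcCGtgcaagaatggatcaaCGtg
Because these bins were chosen for their change with age, the direction of their single CpGs is a description. All 3 CpGs of the Notch2 sequence, all 6 of Notch1 exon 4, all 7 of Notch1 exon 34 and both of Dll4 intron 6 were lower at P21 than at P0 in ISCs and in differentiated cells. Both CpGs of the Dll1 sequence and all 7 of the Dll4 upstream bin, of which the last starts on its final base and is not in capitals, were higher at P21 in both populations. Both CpGs of the Dll4 intron 6 bin, at bases 179 and 197, lie in exon 7, since the bin was named by its midpoint. In P0 ISCs the CpGs of the Dll1 bin rested on 6 and 7 calls and those of the Dll4 intron 6 bin on 12 and 13.

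The promoters of the 10 genes were nearly unmethylated in all 4 libraries with the exception of Notch3 and Notch4. Taking the promoter as the 1 kb on either side of the start site, 8 of the 10 genes stayed below 5% in every library. Each promoter of the 10 genes rested on 416 to 7976 calls per library. The median promoter of all genes had a level of 12.3% in P0 ISCs, 8.46% in P0 differentiated cells, 12.1% in P21 ISCs and 8.95% in P21 differentiated cells. The medians over the 10 genes were 1.34%, 1.15%, 1.38% and 0.983%.

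Among the ligands, the promoters of Dll1, Dll4 and Jag1 lay between 0.338% and 0.698% in all libraries and that of Jag2 between 1.69% and 2.48%. Rbpj, which binds the DNA of Notch target genes, was at 0.327% to 0.428%. Hes1, the transcriptional repressor that Notch switches on, was at 0.575% in P0 ISCs, 0.325% in P0 differentiated cells, 0.0579% in P21 ISCs and 0.336% in P21 differentiated cells. Notch1, the receptor most studied in the crypt, was at 2.04% to 2.22%, and Notch2, its close relative, at 1.33% to 3.89%. None of these 8 promoters differed by more than 5 points in any comparison, which was the size required of a region here. At levels below 5% a fall of that size was not possible, so only a rise could have been called.

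Notch3, best known from vascular smooth muscle, had a promoter level of 17.2% in P0 ISCs, 13.3% in P0 differentiated cells, 21.7% in P21 ISCs and 21.0% in P21 differentiated cells. The methylation stood at the upstream end: the 6 bins from 925 bp downstream to 75 bp upstream of the start were at 0% to 2.54% in every library. The bins centred 475 and 675 bp upstream, chr17:32304201-32304600, together rose from 56.4% to 78.1% in ISCs and from 61.5% to 77.6% in differentiated cells. In ISCs both bins were called (largest adjusted p = 0.0211, Fisher's exact test), and in differentiated cells the nearer one, at 36.0% and 60.6%, was (adjusted p = 5.30e-05, Fisher's exact test). Over the whole promoter the gain of 7.65 points in differentiated cells passed (adjusted p = 1.74e-09, Fisher's exact test), while that of 4.54 points in ISCs was under the limit of 5 points. With each bin weighted equally the order turned, with 3.74 points in differentiated cells, under the limit, and 6.27 points in ISCs. The gain in ISCs was called with that weighting, within 500 bp of the start (9.59 points) and with bins shifted by 100 bp (5.06 points). With the libraries thinned to equal depth it was called at 6.44 points, while that in differentiated cells was 3.87 points and not called.

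Notch4, best known from endothelium, was the member without a CpG island at its promoter, and its promoter level was 36.5% in P0 ISCs, 37.9% in P0 differentiated cells, 53.3% in P21 ISCs and 45.9% in P21 differentiated cells. Both P21 libraries were above both P0 libraries. The gain was 16.7 points in ISCs (adjusted p = 2.31e-05, Fisher's exact test) and 8.05 points in differentiated cells (adjusted p = 0.0102, Fisher's exact test). In ISCs it came largely from 1 bin of intron 1, chr17:34701801-34702000, centred 687 bp downstream of the start, which stood at 42.1% in P0 ISCs, 50.4% in P0 differentiated cells, 81.4% in P21 ISCs and 62.9% in P21 differentiated cells and was called in ISCs only. Within 500 bp of the start the differences were 2.56 and 1.71 points and neither was called, and with each bin weighted equally the gain in ISCs was 9.89 points. Of all genes with a promoter, 10.3% were called in ISCs and 8.91% in differentiated cells between the ages, in either direction, so that the 1 and 2 of the 10 members called are near that background. Between the populations 15.2% of promoters were called at P0 and 11.3% at P21, and 0 of the 10 members at either age.

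**Figure D1:**
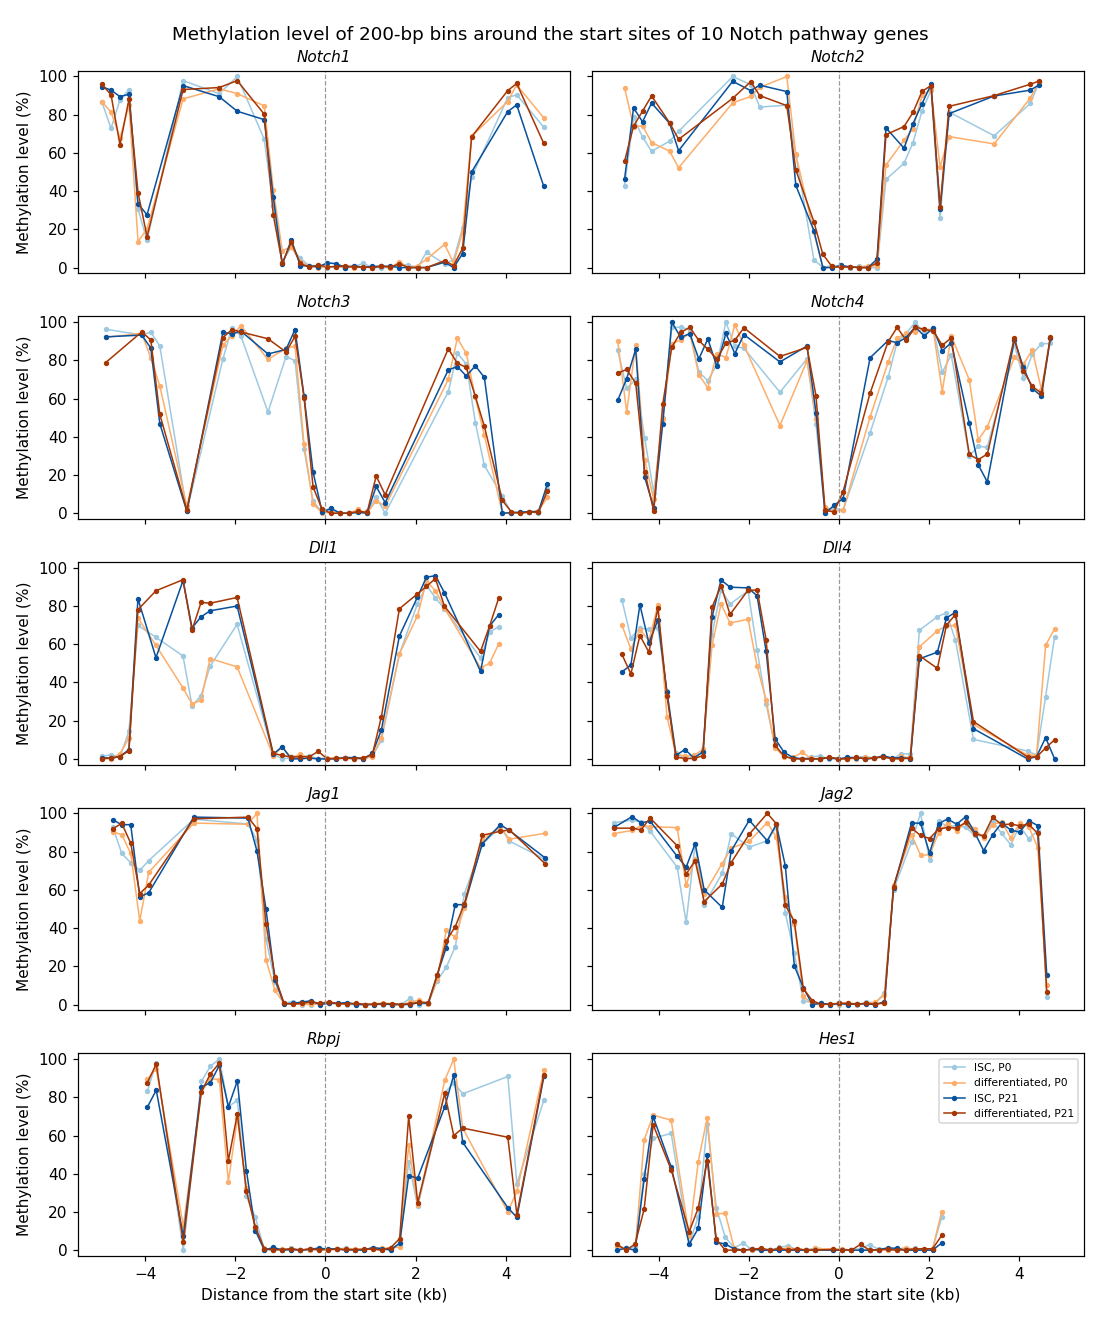
Methylation level (percent of calls, y axis) of each tested 200-bp bin by its distance from the start site (kb, x axis) in the 10 genes, with 1 line per library. The lines lie below 20% over the start site in every panel and spread apart away from it, as upstream of Dll1, where the P21 libraries run above the P0 libraries.

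The unmethylated stretch around the start site differed in width between the genes far more than between the libraries. Counting the bins without a break below 20%, it was 5000 to 6600 bp wide at Hes1 over the 4 libraries, more than the length of that gene, and 4000 to 4200 bp wide at Notch1. It was 3800 to 4000 bp at Jag1, 3400 bp at Rbpj, 3200 bp at Dll4, 2400 to 2600 bp at Dll1 and 2000 bp at Jag2. The 3 narrowest were Notch3 with 1600 to 1800 bp, Notch2 with 1400 to 1600 bp and Notch4 with 600 bp. At this limit the order of the genes was the same in every library apart from ties. Below 10% it was not, with Notch1 at 3000 bp and Jag1 at 3600 bp in P0 differentiated cells and Notch3 at 1200 bp and Notch2 at 1400 bp in both P21 libraries. CpG islands, taken as regions with at least 25 CpGs in 500 bp, covered 12.1% of the member bins against 3.69% of all bins. An island bin lay in 9 of the 10 promoters, against 61.4% of promoters over all genes. The last exons of Notch2, Notch4, Jag2 and Hes1 also held one, against 8.88% of last exons over all genes.

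Because RBPJ is known to bind a sequence containing GTGGGAA, these letters were looked for on both strands from 250 bp before to 50 bp after each start. They were found at Hes1 alone among the 10 genes and in 5.87% of the 21418 promoters. The 250 bp before the Hes1 start, chr16:30065176-30065425 on the plus strand, are given with these letters in capitals.
Hes1 promoter: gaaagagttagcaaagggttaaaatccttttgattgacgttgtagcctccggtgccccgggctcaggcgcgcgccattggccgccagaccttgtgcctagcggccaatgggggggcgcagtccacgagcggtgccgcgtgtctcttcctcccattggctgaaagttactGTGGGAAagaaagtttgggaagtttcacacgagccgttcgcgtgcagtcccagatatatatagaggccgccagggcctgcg
The CpGs of this stretch were unmethylated. ISCs had 0 methylated of 247 calls at P0 and 0 of 216 at P21, which allows levels of up to 1.21% and 1.39% when 3 calls are taken as the limit, and differentiated cells had 0.399% of 751 calls at P0 and 0.396% of 758 at P21. A match of letters is a description of the sequence and not a measured site.

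Maturation from P0 to P21 was compared first in ISCs and then in differentiated cells, and a bin was called a maturation-associated differentially methylated region (mDMR) when its adjusted p was below 0.05 and its level changed by more than 15 points. In ISCs 25 of the 1401 member bins gained methylation, 1.78% against 1.07% of all bins, and 32 lost it, 2.28% against 1.48%. In differentiated cells 46 bins gained, 3.28% against 0.992%, and 41 lost, 2.93% against 1.86%. Together 4.07% of the member bins were mDMRs in ISCs, against 2.88% of the bins in the spans of all protein-coding genes, and 6.21% in differentiated cells, against 3.24%. Member bins were read more deeply than others, and the part of this in their higher shares was not tested. With all libraries thinned to the lowest one in each bin, which evens out the libraries and not the bins, 2.86% of member bins were called in ISCs against 1.62% of all bins, and 3.14% in differentiated cells against 1.25%. In ISCs the shares came close to each other with at least 4 CpGs per bin, at 4.67% and 4.16%, and by size alone without a test, at 13.9% and 13.5%. By size alone they also came close in differentiated cells, at 13.2% and 12%. The median mDMR of a member had a size of 28.9 points for ISCs and of 24.5 points for differentiated cells, while the median difference over all member bins was 0.27 and 0.236 points.

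**Figure D2:**
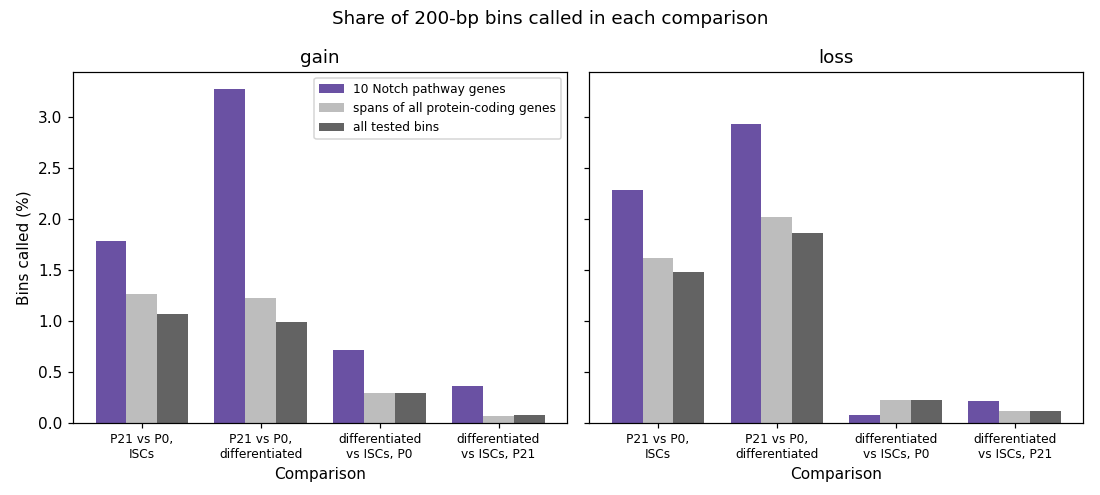
Share of bins called (percent, y axis) as gains (left) and losses (right) in each of the 4 comparisons (x axis), for the 1401 bins of the 10 genes, the bins in spans of all protein-coding genes and all tested bins. In percentage points, the share of gains in differentiated cells between P0 and P21, 3.28% in the 10 genes, stands furthest above that of all bins, 0.992%. As a ratio, that of gains between the populations at P21 stands higher, at 0.357% against 0.0711%. That share is 5 bins, 3 of them at Notch2, and after thinning 1 gain was called.

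The receptors held most of the bins and most of the calls. In ISCs 43 of their 893 bins were mDMRs (4.82%), against 11 of 343 for the ligands (3.21%), 2 of 131 for Rbpj and 1 of 34 for Hes1. In differentiated cells these numbers were 62 (6.94%), 22 (6.41%), 1 and 2. Over all bins the shares were 2.55% in ISCs and 2.85% in differentiated cells, and in the spans of all protein-coding genes 2.88% and 3.24%. Among the ligands, mDMRs made up 6.38% of Dll1 bins in ISCs and 14.9% in differentiated cells, and 8.62% and 12.1% of Dll4 bins. At Jag1 they made up 0.8% and 3.2%, and at Jag2 1.77% and 3.54%.

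The called bins of Notch1 were mainly losses. Of its 184 bins, 3 gained and 13 lost in ISCs, and 2 gained and 14 lost in differentiated cells, with 9 losses called in both populations. The longest run of losses in ISCs held 3 adjacent bins of exon 4 and intron 4, chr2:26339601-26340200, centred 19242 to 19642 bp downstream of the start. Its level was 74.2% in P0 ISCs (95% Wilson interval 67.4 to 80), 69.6% in P0 differentiated cells, 27.8% in P21 ISCs (22.5 to 33.7) and 32.4% in P21 differentiated cells. Both P21 libraries were thus far below both P0 libraries, and all 3 bins were called in ISCs (largest adjusted p = 0.0148, Fisher's exact test) and 2 of them in differentiated cells. In the exon 4 bin printed above, the level fell from 69.8% to 10.6% in ISCs and from 63.6% to 20.2% in differentiated cells.

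Exon 34, the last of Notch1, held 1 of the 4 runs of 2 bins that were the longest in differentiated cells, the one with the largest mean change, at chr2:26315601-26316000. The level was 68.1% in P0 ISCs, 70.5% in P0 differentiated cells, 26.8% in P21 ISCs and 20.9% in P21 differentiated cells. Both bins were called in both populations (largest adjusted p = 0.0238 in ISCs and 1.20e-18 in differentiated cells, Fisher's exact test). The printed bin had 116 calls in each ISC library, of which 65.5% were methylated at P0 and 15.5% at P21, and the differentiated cells stood at 67.6% and 15.5%. Further along the same exon another bin, chr2:26315001-26315200, went the other way in ISCs, from 59.5% to 83.2% (adjusted p = 0.00456, Fisher's exact test).

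The remaining losses of Notch1 all lay in intron 2, which was singled out after its values were seen. Of its 52 bins, 8 were called losses in ISCs and 10 in differentiated cells and 0 were called gains, and 38 were lower at P21 in both populations. The median level over these bins was 47.3% in P0 ISCs, 57.0% in P0 differentiated cells, 32.0% in P21 ISCs and 37.7% in P21 differentiated cells. The 2 bins at chr2:26351401-26351800 were at 66.3%, 66.0%, 34.9% and 27.3% in the same order, and the 2 bins at chr2:26345801-26346200 at 78.8%, 80.6%, 45.1% and 44.0%. Between them, the bin at chr2:26350601-26350800 stood at 46.2%, 40.6%, 8.93% and 3.39%.

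The longest run of called bins at Notch2 was a block of losses at its 3' end. Of its 446 bins, 7 gained and 8 lost in ISCs, and 20 gained and 10 lost in differentiated cells. The block held 5 of the 8 losses in ISCs and 4 of the 10 in differentiated cells, and the others lay in introns 1, 6 and 14 and upstream. It was made of 5 adjacent ISC mDMRs, the longest run in any of the 10 genes, over intron 33 and the start of exon 34, chr3:97949201-97950200, centred 131839 to 132639 bp downstream of the start. Its level was 76.8% in P0 ISCs (95% Wilson interval 74.2 to 79.2), 79.4% in P0 differentiated cells (77.1 to 81.5), 37.3% in P21 ISCs (34.2 to 40.6) and 56.7% in P21 differentiated cells (54.0 to 59.4). The P0 libraries were alike, both fell, and the ISCs ended lower. All 5 bins were called in ISCs (largest adjusted p = 0.0133, Fisher's exact test) and the last 4 in differentiated cells (largest adjusted p = 0.000518, Fisher's exact test).

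Along the Notch2 block the P21 levels of the 2 populations lay apart in some bins and close in others. The first bin, chr3:97949201-97949400, fell from 72.0% to 51.1% in ISCs and was at 78.2% and 73.8% in differentiated cells. The third, printed above, was nearly the same in both at P21, with 29.1% in ISCs and 31.9% in differentiated cells. The fifth, chr3:97950001-97950200, an island bin with 14 CpGs, fell from 79.7% to 39.2% in ISCs and from 81.2% to 61.5% in differentiated cells. Elsewhere in the gene, 2 bins of intron 1 at chr3:97849201-97849600 rose in differentiated cells from 10.7% to 64.2% and stood at 38.3% and 61.7% in ISCs. A further 2 bins of intron 1, chr3:97832801-97833200, fell in differentiated cells from 44.9% to 10.9% and stood at 45.5% and 15.2% in ISCs, where 1 of them was called.

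**Figure D3:**
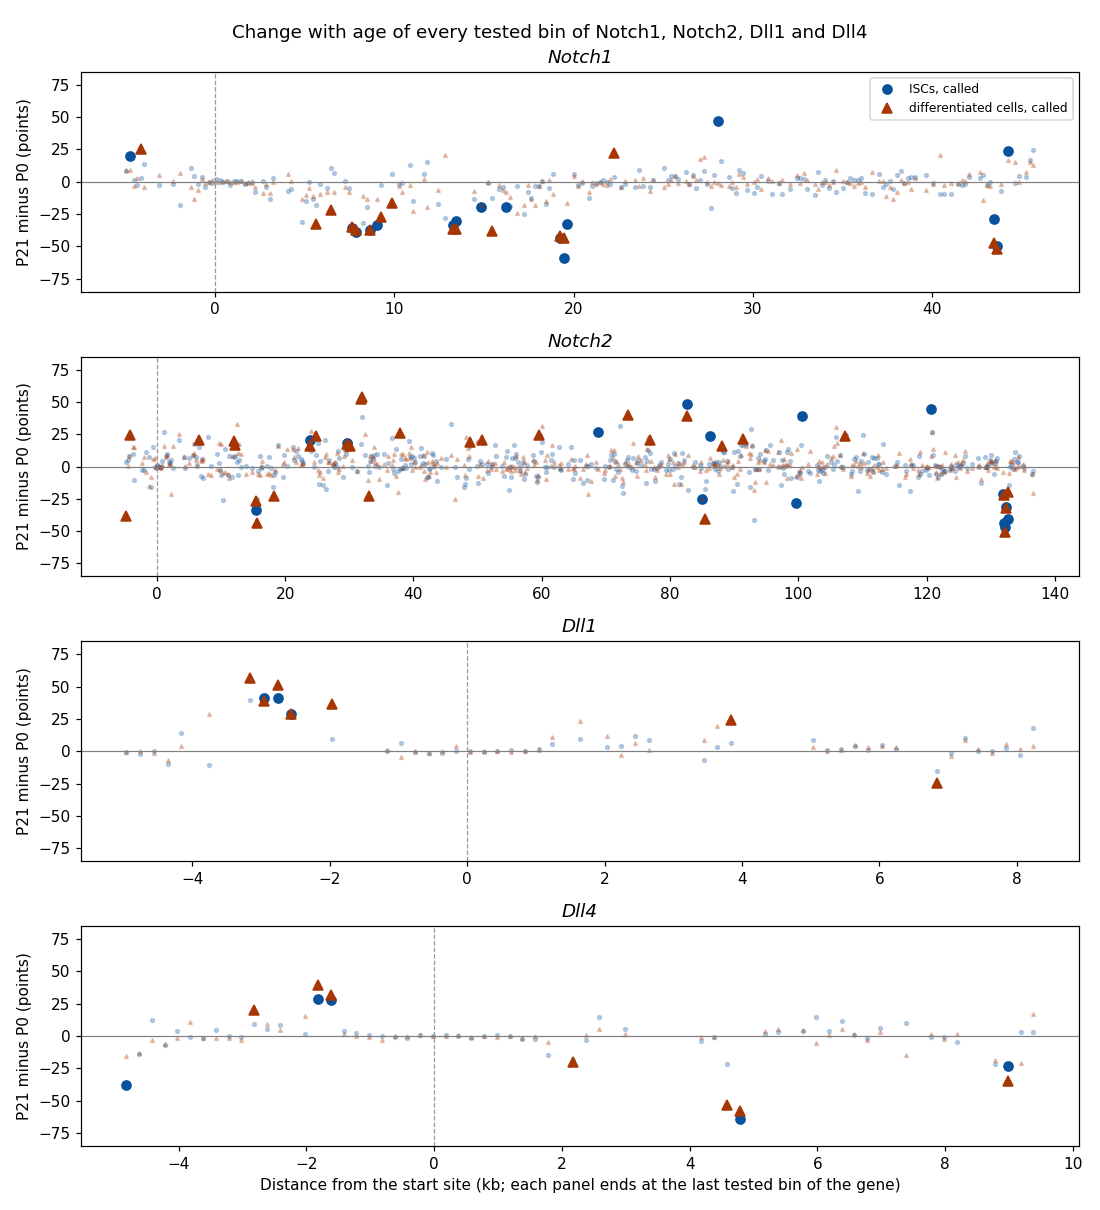
Difference in methylation level between P21 and P0 (points, y axis) of every tested bin by distance from the start site (kb, x axis) at Notch1, Notch2, Dll1 and Dll4, in ISCs (circles) and differentiated cells (triangles), with called bins as large symbols. Called losses cluster between 5 and 20 kb at Notch1 and at the 3' end of Notch2, and called gains upstream of Dll1 and Dll4, where 1 ISC bin of Dll4 was a called loss.

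Of the other receptors, Notch3 had mDMRs at 3.25% of its bins in both populations, and Notch4 at 6.42% in ISCs and 10.1% in differentiated cells, against 8.70% in both for Notch1 and 3.36% and 6.73% for Notch2. With the promoter run described above, Notch3 had 3 gains and 2 losses in ISCs and 2 gains and 3 losses in differentiated cells over 154 bins. Intron 15 held the loss called in both populations, chr17:32287401-32287600, which went from 67.9% to 42.5% in ISCs and from 72.8% to 48.8% in differentiated cells. Notch4 had 4 gains and 3 losses in ISCs and 8 gains and 3 losses in differentiated cells over 109 bins. Its longest run in ISCs was a gain of 2 bins in intron 9 and exon 10, chr17:34709201-34709600, with 25.7% in P0 ISCs, 32.5% in P0 differentiated cells, 48.6% in P21 ISCs and 46.6% in P21 differentiated cells. In differentiated cells the longest run was a gain of 2 bins upstream, chr17:34698001-34698400, from 67.9% to 87.6%, where ISCs had 71.1% and 86.4%. A bin of Notch4 intron 11, chr17:34710401-34710600, fell in both populations, from 55.9% to 10.3% in ISCs and from 46.2% to 17.8% in differentiated cells.

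Upstream of both Delta-like ligands a run of adjacent bins gained methylation with age in both populations. At Dll1, 3 adjacent bins at chr17:15515401-15516000, centred 2560 to 2960 bp upstream of the start, had a level of 39.8% in P0 ISCs (95% Wilson interval 34.6 to 45.1), 40.2% in P0 differentiated cells, 74.1% in P21 ISCs (69.7 to 78.1) and 79.4% in P21 differentiated cells. All 3 were called in both populations (largest adjusted p = 9.81e-05 in ISCs, Fisher's exact test), and in differentiated cells the run went on for a further bin to 15516200 (largest adjusted p = 0.000514, Fisher's exact test). That bin, printed above, rested on 13 to 62 calls per library and in ISCs stood at 53.8% and 93.3% (adjusted p = 0.119, Fisher's exact test). The bins lie within the annotated lincRNA A930024N18Rik, which starts inside Dll1 and runs away from it on the other strand. To which of the 2 genes the change belongs cannot be told apart. Dll1 had no called loss in ISCs, and in differentiated cells 6 gains and 1 loss over 47 bins.

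At Dll4 the 2 bins at chr2:119149601-119150000, centred 1620 and 1820 bp upstream of the start, had a level of 39.6% in P0 ISCs (95% Wilson interval 32.6 to 47.2), 41.0% in P0 differentiated cells, 70.5% in P21 ISCs (65.1 to 75.3) and 76.1% in P21 differentiated cells. Both were called in both populations (largest adjusted p = 0.00157 in ISCs and 4.06e-09 in differentiated cells, Fisher's exact test). They too lie within a lincRNA of the other strand, Gm14207, which starts inside Dll4. Further upstream the bin at chr2:119146601-119146800 went the other way in ISCs, from 83.3% to 45.5% (adjusted p = 0.00222, Fisher's exact test), with 70.1% and 54.8% in differentiated cells. Over its 58 bins Dll4 had 2 gains and 3 losses in ISCs and 3 gains and 4 losses in differentiated cells. Inside Dll4 some bins lost methylation. The sum over the whole body was at 57.2% and 58.6% in ISCs and at 53.4% and 50.8% in differentiated cells, and neither was called. With each bin weighted equally the body went from 62.2% to 58.9% in ISCs. In differentiated cells it then fell by 5.65 points, which was called. The 2 bins at chr2:119156001-119156400, at intron 6, were at 44.6% in P0 ISCs, 62.1% in P0 differentiated cells, 7.69% in P21 ISCs and 7.48% in P21 differentiated cells. Both were called in differentiated cells (largest adjusted p = 4.36e-08, Fisher's exact test) and the one printed above also in ISCs (adjusted p = 0.000481, Fisher's exact test), on 25 and 20 calls. Exon 11, the last of Dll4, held another loss of both populations at chr2:119160401-119160600, from 52.0% to 28.7% in ISCs and from 60.3% to 25.4% in differentiated cells.

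**Figure D4:**
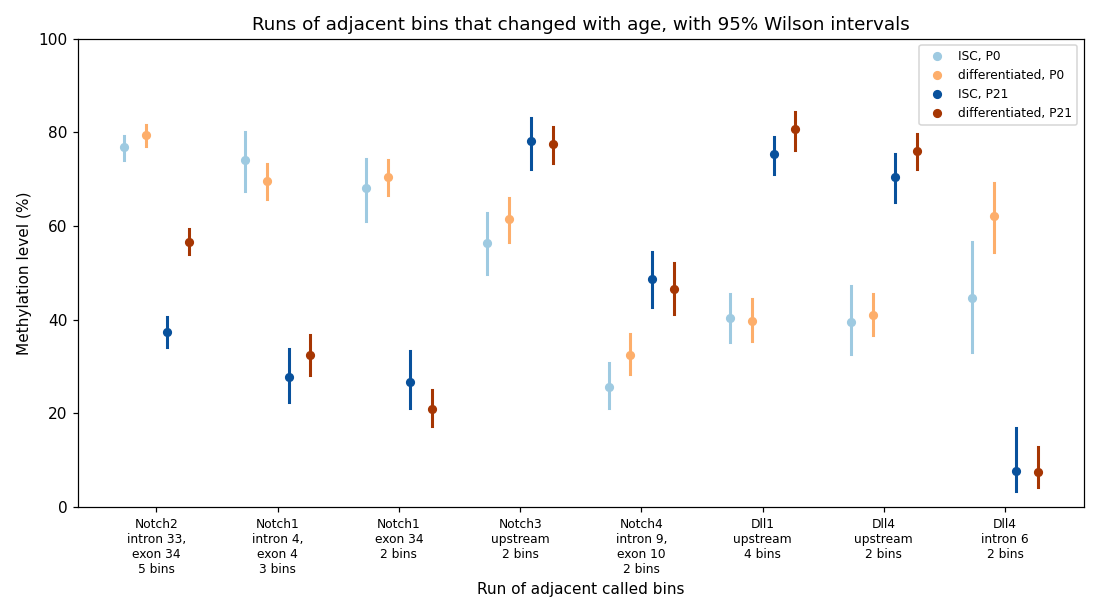
Methylation level (percent, y axis) of 8 runs of adjacent called bins (x axis) in the 4 libraries, with 95% Wilson intervals as bars, which cover counting error only. In every run both P21 libraries lie on the same side of both P0 libraries, below them at Notch2, Notch1 and Dll4 intron 6 and above them at Notch3, Notch4, Dll1 and Dll4 upstream.

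The Jagged ligands had single mDMRs only, none of them called in both populations. Over all bins 36.3% of the ISC calls and 32.5% of those in differentiated cells were shared. With so few calls no difference from these shares can be read. Jag1, over 125 bins, had 1 loss in ISCs, upstream at chr2:136946201-136946400, from 75.3% to 58.5%, with 69.2% and 62.5% in differentiated cells. In differentiated cells Jag1 had 2 gains and 2 losses, of which the largest, in intron 20 at chr2:136912001-136912200, went from 47.6% to 6.17%, while ISCs stood at 23.9% and 19.0%. Jag2, over 113 bins, had 2 gains in ISCs, the larger upstream at chr12:114171001-114171200 from 43.0% to 71.9%, with 62.6% and 68.3% in differentiated cells. Differentiated cells had 2 gains and 2 losses at Jag2, and the largest was a loss in intron 2, chr12:114162601-114162800, from 54.4% to 18.6%, with 66.7% and 60.7% in ISCs.

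Of the nuclear members, Rbpj had mDMRs at 1.53% of its bins in ISCs and 0.763% in differentiated cells and Hes1, with 34 bins, at 2.94% and 5.88%, against 2.55% and 2.85% of all bins. Rbpj had 1 gain and 1 loss in ISCs and 1 gain in differentiated cells over 131 bins, all in intron 1. The loss, at chr5:53985401-53985600, went from 90.9% to 22.2% in ISCs (adjusted p = 0.0232, Fisher's exact test), whereas differentiated cells had 20% at P0 and 59.1% at P21, which was not called. This was the largest change of any called member bin, and it rested on 11 to 22 calls per library. The 3 Hes1 calls were losses between 2526 and 4326 bp upstream of the start. The ISC loss, at chr16:30062601-30062800, went from 22.2% to 4.17%, with 19.0% and 5.75% in differentiated cells, and the adjacent bin, chr16:30062801-30063000, fell in differentiated cells from 19.2% to 0% of 76 calls (95% Wilson interval up to 4.81%), with 6.74% and 3.23% in ISCs. The largest Hes1 loss in differentiated cells, at chr16:30061001-30061200, was from 57.6% to 21.4%, with 40% and 37.1% in ISCs.

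Setting the populations side by side, 29 of the 57 ISC mDMRs were called with the same sign when differentiated cells were compared between the ages, that is 50.9% of the ISC calls and 33.3% of the 87 calls in differentiated cells. Over all bins these shares were 36.3% and 32.5%. Calls in opposite directions numbered 0 in the members and 320 of 104140 ISC calls over all bins. The 2 comparisons share no library, but the mice of each age were pooled, so that age and a difference between pools cannot be told apart. The shared calls were 11 gains and 18 losses and lay at Notch1 (9), Notch2 (8), Dll4 (4), Dll1 (3), Notch4 (3) and Notch3 (2).

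Differentiation was compared at each age as the differentiated minus the ISC level, and called bins are differentiation-associated differentially methylated regions (dDMRs). There were far fewer of them. The study describes mosaic expression in adult mice of this line, with some EGFP-negative crypts, and states no selection on the reporter at P0. Whether stem cells without EGFP were sorted with the differentiated cells was not tested. At P0, 10 member bins were higher in differentiated cells (0.714%, against 0.288% of all bins) and 1 was lower (0.0714%, against 0.22%). At P21, 5 were higher (0.357%, against 0.0711%) and 3 lower (0.214%, against 0.111%). With the libraries thinned to equal depth 1 member bin was left at each age, 0.0714% against 0.096% of all bins at P0 and 0.0373% at P21. The share of members was also under that of all bins at P0 with at least 40 calls per bin, at 0.629% against 0.83%, and by size alone without a test, at 8.35% against 10.6% at P0 and 7.42% against 9.47% at P21.

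The Notch2 block was the site of 3 of the 5 higher bins at P21. At chr3:97949201-97949600 ISCs had 44.3% and differentiated cells 66.4% at P21 (largest adjusted p = 0.0393, Fisher's exact test), after P0 levels of 78.0% and 80.3%, and the island bin of exon 34 was the third. Whether the change with age differed between the populations was not tested on its own. At P0 the dDMRs were single bins: Notch1 and Notch2 had 4 each, Jag1 had 2 and Notch3 had 1. The largest at Notch2 lay upstream at chr3:97812601-97812800, where P0 levels were 42.9% in ISCs and 94.1% in differentiated cells and P21 levels 46.2% and 55.6%. The largest at Notch1, in intron 2 at chr2:26343801-26344000, had 14.6% and 63.0% at P0 and 1.75% and 25% at P21. At Jag1 intron 5, chr2:136925001-136925200, the level was 28.6% in P0 differentiated cells against 2.82% in P0 ISCs, 7.78% in P21 ISCs and 3.03% in P21 differentiated cells. The Jag2 intron 2 bin given above was the largest dDMR at P21, with 60.7% in ISCs and 18.6% in differentiated cells (adjusted p = 0.000414, Fisher's exact test). No dDMR was seen at Dll1, Hes1 or Rbpj, where 47, 34 and 131 bins were tested. Over all bins 0.508% were called at P0 and 0.182% at P21, so that none in so few bins is near the background.

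Summed over regions, the median body level of the 10 genes was 67.2% to 70.8% in the 4 libraries, below the 80.3% to 80.9% over all genes, and that of last exons 74.0% to 80.8%, against 86.4% to 86.9%. These are sums of calls, which put more weight on deeply read bins. An island bin lay in 9 of the 10 bodies, against 28.8% of bodies over all genes. Neither gap to all genes was measured with each bin weighted equally. The body level of 9 genes lay between 50.8% at Dll4 and 82.2% at Notch2. The Hes1 body, apart from its last exon, was at 0.168% to 0.727%. The last exon was above 80% in every library at Notch2, Dll1, Jag1, Jag2 and Rbpj, while Notch3 was at 66.8% to 72.8%. The last exon of Hes1 was at 0.344% to 1.96%. That of Notch4, which lies on an island and ends 1303 bp before the start of the next gene, Gpsm3, was at 3.02% in P0 ISCs, 1.41% in P0 differentiated cells, 2.90% in P21 ISCs and 1.74% in P21 differentiated cells.

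**Figure D5:**
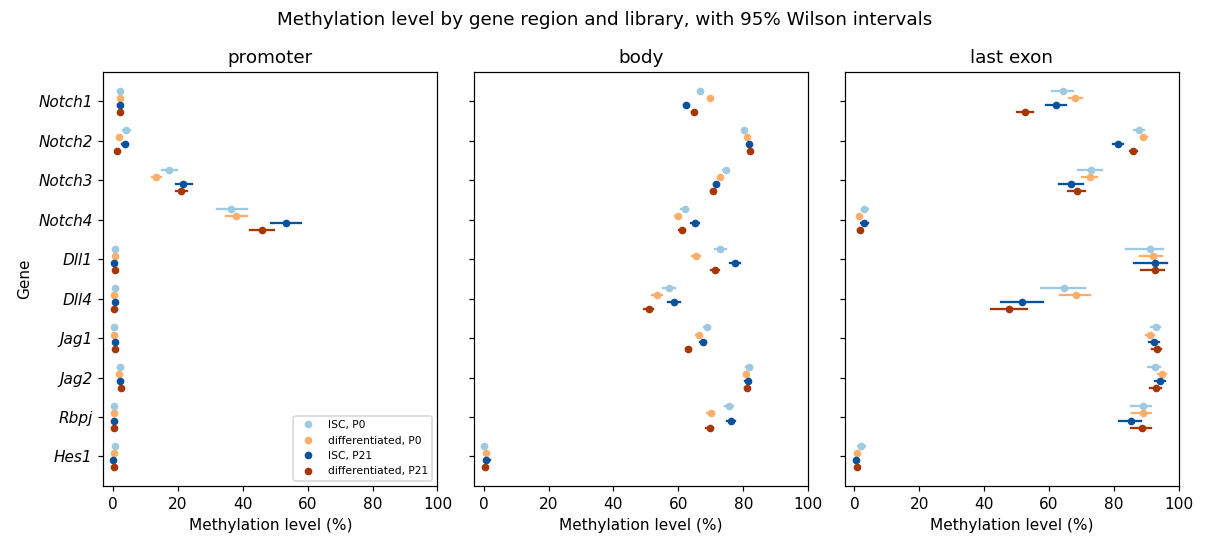
Methylation level (percent, x axis) of the promoter, body and last exon of each gene (y axis) in the 4 libraries, with 95% Wilson intervals as bars, which cover counting error only. Promoters lie near 0 except at Notch3 and Notch4, bodies and last exons lie above 40% except at Hes1 and the last exon of Notch4.

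With age, 0 of the 10 bodies were called in ISCs, where 8.85% of all genes were, and 2 in differentiated cells, where 9.14% were. Those were Notch1, which fell by 5.08 points, and Dll1, which rose by 5.87 points; with each bin weighted equally the differences were -4.83 and 4.83 points, under the limit. In last exons 1 member was called in ISCs (9.90% of all genes) and 2 in differentiated cells (11.1% of all genes), all losses. The last exon of Notch2 fell by 6.51 points in ISCs (-2.47 points with each bin weighted equally, under the limit). In differentiated cells that of Notch1 went from 68.1% to 52.5% and that of Dll4 from 68.3% to 47.6%, and in ISCs they were at 64.2% and 62.2% for Notch1 and at 64.6% and 51.8% for Dll4. With each bin weighted equally the difference in differentiated cells was -3.54 points at Notch1, under the limit, and -13.1 points at Dll4. After thinning of the libraries to equal depth, 0 of the 30 promoters, bodies and last exons were called in differentiated cells. The 6 differences called before kept their sign there and were smaller. The gains came to 7.85 points at the Notch4 promoter, 3.87 at the Notch3 promoter and 3.72 at the Dll1 body. The losses came to -13.6 points at the Dll4 last exon, -6.8 at the Notch1 last exon and -4.14 at the Notch1 body. In ISCs the Notch4 promoter, with 13.4 points, and the Notch2 last exon, with -8.53 points, were still called. The Notch3 promoter, with 6.44 points in ISCs, was called after thinning but not before it. From 5 to 1 kb upstream, Notch1 rose by 11.2 points and Dll1 by 5.88 points in ISCs and Rbpj fell by 10 points (15.2% of all genes were called). In differentiated cells Dll1 rose by 9.97 points, Notch4 by 9.14 points, Dll4 by 7.96 points and Notch2 by 6.87 points (15.6% of all genes). After thinning, Dll1 was still called in both populations, with 8.63 and 11.9 points, and Notch1 in ISCs, with 8.33 points. With each bin weighted equally, which has no test of its own, only Dll1 of these stayed above the limit, with 12.6 points in ISCs and 19.8 points in differentiated cells. The other differences were then 3.30 points for Notch1 and -1.01 for Rbpj in ISCs, and 4.15 for Notch4, 4.5 for Dll4 and 1.41 for Notch2 in differentiated cells. Hes1 then came to -7.85 points in differentiated cells, against -1.94 points in the sum.

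Between the populations, the called bodies were lower in differentiated cells: Dll1 and Rbpj at P0, where 7.86% of all genes were called, and Dll1, Dll4 and Rbpj at P21, where 6.81% were. Of last exons, 0 members were called at P0 (5.77% of all genes) and 1 at P21 (3.97% of all genes), that of Notch1, with 62.2% in ISCs and 52.5% in differentiated cells. This difference came to -3.68 points with each bin weighted equally and to -2.19 points after thinning, and neither was called. Upstream, 1 member was higher and 5 were lower at P0 (15.9% of all genes) and 3 were lower at P21 (13.7% of all genes). With each bin weighted equally or the libraries thinned, 0 of these upstream regions were called at either age, and Notch1, the higher one at P0, came to -1.82 points with equal weight. The sums put more weight on deeply read bins. The island bins of the 10 genes had median levels of 0.671% to 0.909%, though those of the Jag2 last exon together stood at 92.5% to 94.9%. Their median calls at P0 were 167 in ISCs and 453 in differentiated cells, and at P21 they were 199 and 394. In the other bins the medians were 62 and 112 calls at P0 and 67 and 87 at P21. With each bin weighted equally the body differences came to -0.774 points for Dll1 and -1.86 for Rbpj at P0, and to 1.19 for Dll1, -2.72 for Dll4 and -2.01 for Rbpj at P21, and 0 of the 30 promoters, bodies and last exons were then called at either age.

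The rest of the pathway was taken from a list of 51 further genes for ligands, receptor processing, ubiquitin ligases, nuclear cofactors and targets, all of which matched the annotation. In ISCs 138 of their 6588 bins gained methylation with age and 112 lost it, and in differentiated cells 162 gained and 141 lost. That is 3.79% and 4.60% of bins, in both populations between the share of all bins and that of the 10 genes. Maml3, a coactivator of the Notch and RBPJ complex, held 57 of the ISC gains and 11 of the losses in 1310 bins, and 67 and 17 in differentiated cells. Without it losses outnumbered gains, with 81 gains and 101 losses in ISCs and 95 and 124 in differentiated cells. The dDMRs of the list were 17 higher and 15 lower bins at P0, and 4 higher and 7 lower at P21, that is 0.486% and 0.167% of bins against 0.508% and 0.182% of all bins. The promoters of 34 of the 51 genes were below 10% in all 4 libraries, and those of Psen2, Mib2, Itch and Maml2 were above 50% in all 4.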

How the data were processed

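As the labels and the methods of the study describe, DNA was converted with bisulfite, sequenced as paired-end reads and mapped to mm9 with Bismark. Neither the version nor duplicate removal is given in the sources used here, and remaining duplicates would make the tests call too much. The authors deposited, for each CpG cytosine, a count of calls and a count of methylated calls, and the deposited fraction was their ratio and was not used. Positions at no reference CpG (0.465% to 0.850%) were left out. Bins of 200 bp on autosomes needed at least 2 CpGs and 10 calls in all 4 libraries. Bins were compared by two-sided Fisher's exact tests with Benjamini-Hochberg adjustment over all bins, and regions over all genes, with limits of 15 and 5 points. The transcript with the longest coding sequence gave each gene's regions (GENCODE M1). All 10 members were named and, per member and comparison, the longest run of called bins; others were chosen for their values. Members and lists were chosen with earlier results of these data known, and some listed genes are not reported here by name. Python 3.11.15, numba 0.67.0 and scipy 1.17.1 were used, and the procedure was tested on simulated data.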

Additional observations from a re-analysis of the deposited data

How the results depend on the processing

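Each group was 1 library, so no library could be left out. No paired analysis was made, because each group has 1 library, so that no 2 groups share 2 replicate numbers. A comparison of the ages with the populations as pairs was not run. Depth limits what could be called. Of 14 calls on promoters, bodies and last exons, a region counting once for each comparison, 0 were made under every alternative, and the cause was not tested. The named runs were chosen for their change, so their direction under the alternatives is no sign of stability, and that of Notch1 exon 34 in differentiated cells shrank to -37.4 points with shifted bins. Equal weight of bins has no test of its own, and calls under it use the adjusted p of the summed calls.

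The count of mDMRs in member bins (57 in ISCs, 87 in differentiated cells) was 33 and 51 with 4 CpGs per bin, 27 and 34 with more than 30 points, and 195 and 185 with 15 points and no test, and 44 in differentiated cells after thinning. Members stood above all bins in each of these, by little in ISCs with 4 CpGs (4.67% against 4.16%). With no test they did so by little in ISCs (13.9% against 13.5%) and in differentiated cells (13.2% against 12%). The count of dDMRs (11 at P0, 8 at P21) was 6 at P0 with 40 calls, 4 and 1 with more than 30 points, 117 and 104 with no test, and 1 and 1 after thinning. Members fell below all bins at P0 with 40 calls (0.629% against 0.83%) and after thinning (0.0714% against 0.096%), at P21 with 30 points (0.0714% against 0.0728%) and at both ages with no test. For the 51 other genes, 30 points gave 124 and 98 mDMRs and 9 and 3 dDMRs, and no test gave 872, 736, 527 and 406. There, 4 CpGs gave 173 mDMRs in differentiated cells, and thinning gave 134 mDMRs in differentiated cells and 11 and 0 dDMRs. Of 30 promoters, bodies and last exons, 2 were called in ISCs and 5 with bins shifted by 100 bp. In differentiated cells 6 were called, 0 after thinning and 3 with equal weight of bins. Between the populations at P0, 2 were called, 1 with single-CpG bins, and 0 after thinning, with shifted bins and with equal weight. At P21, 4 were called, and 0 after thinning and with equal weight. After seeing the data, upstream regions were added: 3 were called in ISCs and 1 with equal weight, 4 in differentiated cells and 2 with equal weight and 1 after thinning, and 6 at P0 and 3 at P21 between the populations and 0 with either. The upstream difference of Notch1 at P0 turned to -1.82 points with equal weight and that of Jag1 at P21 to 0.396 points after thinning. Leaving out Maml3, also added then, left 81 gains and 101 losses in ISCs and 95 and 124 in differentiated cells in the other list. The lower body level of Dll1 in P21 differentiated cells turned to 0.368 points after thinning and to 1.19 points with equal weight. Islands with 35 CpGs covered 7.85% of member bins.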
